A study of Mus musculus with 4 samples.

Results

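The collagen genes of the mouse were described in single-cell RNA sequencing of fetal XY gonads and of cells induced toward gonadal somatic types from XY embryonic stem cells (ESCs). The members were all gene symbols of the form Col, a number, the letter a and a second number, which gave 44 of the 31053 features in the files. They lay on 15 chromosomes, and each was counted in cells that passed the study's limits on detected genes and mitochondrial UMIs. A UMI (unique molecular identifier) marks 1 captured mRNA molecule, and levels are given as UMIs for each 1000000 UMIs of the same cells (UPM). Because molecules were tagged at the 3' end, levels of different genes were not divided by gene length.

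There were 4 libraries, each the only one of its condition. The in vivo libraries were XY gonads of ICR embryos at E10.5, E11.5 and E12.5, prepared with the version 2 kit. The youngest library also holds cells from outside the gonad, of the dorsal mesenchyme, while the other gonads were freed of mesonephros. Where 4 values follow each other they stand for E10.5, E11.5, E12.5 and D6, and 3 values in a row stand for the gonads alone. The fourth library, D6, held XY ESC-derived cells after 6 days of induction, labelled C57BL/6J (N271S9C) with the transgenes Nr5a1-hCD27a and Sox9-2A-CGFP, enriched with magnetic beads against the hCD271 reporter of Nr5a1, and prepared with the version 3 kit. Per the paper, the enrichment was partial, so levels over all D6 cells are not those of reporter-positive cells alone. D6 came from 1 ESC line, and kit, strain, culture and enrichment cannot be told apart from its origin. The labels do not say how many embryos or cultures went into a library, so no test was made between libraries.

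Collagens are secreted proteins of 3 chains wound into a triple helix, and most types need the products of more than 1 gene. Fibrillar types such as I, III and V build the fibers of connective tissue. Type IV makes the sheet of the basement membrane, where types XV and XVIII also lie, and types II, IX and XI are the classical collagens of cartilage. In the fetal testis a basement membrane forms between the cords of Sertoli cells and the interstitial cells, and SOX9, the factor that directs Sertoli cells, is also a known activator of cartilage collagen genes.

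The genes for the main type IV chains, Col4a1 and Col4a2, stand head to head on chromosome 8, with annotated starts that overlap by 22 bases. Their RefSeq promoter windows (GRCm38.p6, from 250 bases before to 50 bases after each start) are shown because these members had closely correlated levels in the data below. The window of Col4a1 is chr8:11312777-11313076 on the minus strand and that of Col4a2 is chr8:11312555-11312854 on the plus strand. Capitals mark the 78 bases that both windows hold, each written 5' to 3' on its own strand.
Col4a1: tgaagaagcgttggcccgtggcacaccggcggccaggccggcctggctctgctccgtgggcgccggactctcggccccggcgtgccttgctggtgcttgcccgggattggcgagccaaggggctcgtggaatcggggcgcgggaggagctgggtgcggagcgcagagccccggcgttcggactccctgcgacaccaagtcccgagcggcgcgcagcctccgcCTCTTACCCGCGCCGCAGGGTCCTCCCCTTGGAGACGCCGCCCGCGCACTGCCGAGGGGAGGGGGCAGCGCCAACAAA
Col4a2: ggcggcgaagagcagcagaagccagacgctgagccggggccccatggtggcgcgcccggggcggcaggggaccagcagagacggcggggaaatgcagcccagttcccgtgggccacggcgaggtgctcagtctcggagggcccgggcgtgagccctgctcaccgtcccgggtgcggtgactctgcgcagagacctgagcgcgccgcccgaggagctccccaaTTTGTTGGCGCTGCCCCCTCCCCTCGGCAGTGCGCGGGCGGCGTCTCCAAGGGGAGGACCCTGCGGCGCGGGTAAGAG
The letters GGGCGG, searched on both strands, occurred 1 time in the Col4a1 window and 3 times in the Col4a2 window, and 35.7% of 32851 promoters held them. CCAAT occurred 1 time in each window, against 37.4% of promoters. TATAAA was in neither.

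The windows of Col9a2 (chr4:121039316-121039615, plus strand) and Col3a1 (chr1:45311288-45311587, plus strand) are shown because these members lay on opposite sides of the comparison of gates below. Capitals mark ACAAAG and AACAAT on either strand, letters that SOX proteins are known to bind.
Col9a2: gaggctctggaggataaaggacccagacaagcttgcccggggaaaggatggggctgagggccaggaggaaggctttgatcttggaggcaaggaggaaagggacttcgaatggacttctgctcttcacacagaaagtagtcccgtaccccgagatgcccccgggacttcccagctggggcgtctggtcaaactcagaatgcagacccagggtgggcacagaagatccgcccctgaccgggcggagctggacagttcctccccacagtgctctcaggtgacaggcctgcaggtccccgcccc
Col3a1: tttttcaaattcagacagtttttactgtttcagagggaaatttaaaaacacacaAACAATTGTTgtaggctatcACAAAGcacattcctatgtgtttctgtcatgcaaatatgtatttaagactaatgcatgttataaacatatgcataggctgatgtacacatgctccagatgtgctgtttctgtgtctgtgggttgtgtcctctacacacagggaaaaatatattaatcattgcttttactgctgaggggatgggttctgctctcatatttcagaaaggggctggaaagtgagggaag
The Col9a2 window held neither motif, and the Col3a1 window held ACAAAG 1 time and AACAAT 2 times, in overlapping letters on both strands. Neither motif was in the windows of Col18a1, on the side of Col9a2. The same held for Col1a2, Col4a5, Col5a1, Col6a1, Col6a2 and Col6a3, on the side of Col3a1. The pair shown thus does not stand for its sides. Over all promoters 18.7% held ACAAAG and 10.7% held AACAAT. These matches describe letters in a window and say nothing of binding. Of the 44 members, 35 had a promoter in the table.

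The cells kept were 3837 of 4473, 2101 of 2449, 2764 of 3176 and 2285 of 2441. They held 32508523, 24625441, 34173977 and 11906360 UMIs, and the median cell had 8167, 11926, 10946 and 4607 UMIs. In vivo libraries shared 7 to 15 barcodes pairwise, and D6 shared 0 with any. Hemoglobin took 1.49%, 1.02%, 0.0545% and 0% of UMIs. All intervals are exact 95% intervals of counting error only, and they carry no error between embryos or cultures.

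Collagen mRNA was higher at each later stage of the gonads and highest in the ESC-derived cells. All members together reached 541, 778, 1125 and 2626 UPM. A cell held a median of 4, 6, 12 and 10 collagen UMIs, although the D6 cells were the shallowest. Fewer cells of a collagen-rich type and less mRNA per cell cannot be told apart in these whole-library levels.

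The makeup of the collagen mRNA differed between libraries. Fibrillar members (8 genes) gave 44.6%, 40.0%, 35.0% and 63.2% of collagen UMIs. The genes of types II and XI were counted as cartilage members and not as fibrillar members. Basement membrane members (8 genes) gave 17.0%, 31.2%, 31.9% and 13.7%. Cartilage members (7 genes) gave 15.6% at E10.5, 17.2% at E12.5 and 2.39% at D6, with E11.5 below both other gonads. The basement membrane share was thus higher in the gonads after E10.5, and the cartilage share was lowest in the ESC-derived cells.

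**Figure D1:**
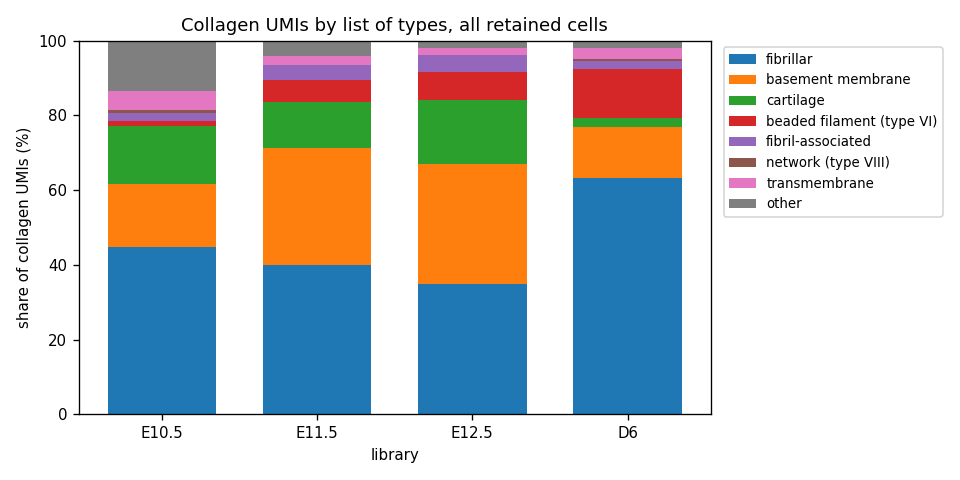
The bars show the percentage of collagen UMIs (y axis, 0 to 100%) that each list of collagen types took in the 4 libraries (x axis), over all retained cells. The fibrillar share was 35.0% at E12.5 and 63.2% at D6.

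Between E10.5 and E12.5 the summed level of the fibrillar list was 1.63-fold higher (1.58 to 1.67), that of the basement membrane list 3.91-fold higher (3.75 to 4.07) and that of the cartilage list 2.28-fold higher (2.18 to 2.39). From E12.5 to D6 the fibrillar list was 4.22-fold higher (4.13 to 4.31), while the basement membrane list had a ratio of 1.00 (0.970 to 1.04) and the cartilage list a ratio of 0.324 (0.300 to 0.350). Of 23 members with at least 10 UPM in E12.5 or D6, 14 were at least 2-fold higher at D6, against 27.0% of all genes at that level, and 4 were at least 2-fold lower, against 7.83%. The median gene was 0.32 higher at D6 on the log2 scale, which is a shift that ratios to D6 share.

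The fibrillar members with the highest levels encode the chains of types I and III. Col1a1 was at 39.8 UPM (37.6 to 42.0), 48.1 (45.4 to 50.9), 41.8 (39.7 to 44.0) and 708 (693 to 724). Col1a2 was at 64.6, 87.0, 132 and 486 UPM in the same order. From E10.5 to E12.5 the ratio was 1.05 (0.974 to 1.13) for Col1a1 and 2.04 (1.93 to 2.15) for its partner Col1a2. Col3a1 had 102, 93.5, 145 and 303 UPM. At D6 Col1a1 was 16.9-fold (16.0 to 17.9), Col1a2 3.70-fold (3.55 to 3.84) and Col3a1 2.09-fold (2.00 to 2.18) above E12.5.

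Type V chains help to start fibrils, and type XXVII is a minor fibrillar type known from cartilage. Col5a1 was at 8.15, 12.8, 13.7 and 82.4 UPM, and Col5a2 at 20.4, 14.4, 17.0 and 30.8. Col27a1 was at 6.58, 54.6, 43.6 and 46.9 UPM. E10.5 stood apart as the low library for Col27a1, and its ratio of E12.5 to E10.5 was 6.62 (5.74 to 7.68). The other fibrillar members, Col5a3 and Col24a1, stayed under 100 UMIs over all libraries.

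In the basement membrane list, Col4a1 was at 25.7 UPM (24.0 to 27.5), 58.9 (55.9 to 62.0), 106 (103 to 110) and 151 (144 to 158) in the order of the libraries. Col4a2 was at 18.4, 42.0, 70.1 and 97.7 UPM. Both were higher in each library than in the one before it, and the counting intervals of Col4a1 did not overlap. Col4a5, for a minor type IV chain, was at 4.49, 9.26, 9.80 and 48.6 UPM. Col18a1, whose product carries the endostatin domain, was at 40.5, 127, 160 and 53.2 UPM, so that it was 3.94-fold (3.71 to 4.19) higher at E12.5 than at E10.5 and had a ratio of D6 to E12.5 of 0.333 (0.306 to 0.362). Col15a1, its close relative, was low in whole libraries, at 1.11, 2.52, 5.47 and 2.27 UPM. Col4a4 was at 0.185, 0.528, 5.47 and 2.18 UPM and Col4a6, for another minor type IV chain, at 1.60, 1.42, 1.46 and 5.29.

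The cartilage list split in the gonads. Col9a3, for a chain of type IX, was at 1.48, 46.0, 122 and 8.40 UPM, and its ratio of E12.5 to E10.5 was 82.9 (62.4 to 113). Col9a2 was at 2.98, 29.4, 42.5 and 11.1 UPM. Col9a1, for the third type IX chain, had 38.0, 6.54, 10.97 and 0.756 UPM, the reverse order between E10.5 and the later gonads. Col2a1, the main cartilage collagen, was at 26.7, 9.71, 9.92 and 3.78 UPM, and Col11a1 at 15.3, 5.36, 7.55 and 37.8. Col10a1, the marker of hypertrophic cartilage, had 0 UMIs, and Col11a2 stayed under 100 UMIs in all.

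**Figure D2:**
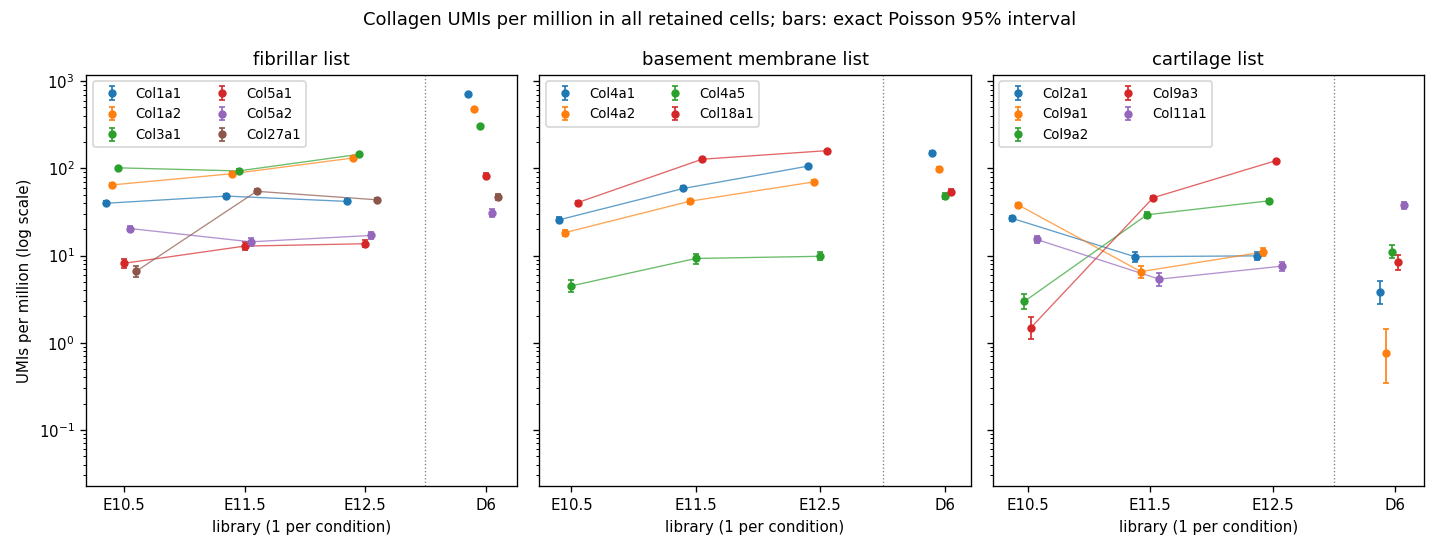
Each point is the level of 1 collagen gene in UPM (y axis, log scale) in a library (x axis) with its exact Poisson interval, for members of 3 lists that reached 10 UPM. Lines join the 3 gonads. Col9a3 stood at 1.48 UPM at E10.5 and 122 at E12.5, Col9a1 at 38.0 and 6.54 at E10.5 and E11.5, and Col1a1 reached 708 UPM at D6.

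Outside these lists, type VI makes beaded filaments around cells. Col6a1 was at 2.52, 16.6, 37.8 and 126 UPM, Col6a2 at 2.65, 16.1, 31.5 and 125, and Col6a3 at 1.38, 10.8, 14.5 and 87.3. The ratio of E12.5 to E10.5 was 15.0 (12.0 to 19.0) for Col6a1, and E10.5 was the lowest library for all 3. Col26a1 had 72.0, 31.4, 22.4 and 49.6 UPM and was the member with the second highest level at E10.5, after Col3a1. Col14a1, a fibril-associated type, was at 6.21, 21.5, 44.3 and 36.6 UPM. Of transmembrane types, Col23a1 was at 15.9, 6.50, 5.97 and 27.1 UPM, Col25a1 at 8.34, 1.91, 1.90 and 30.4, and Col13a1 at 4.40, 8.89, 10.4 and 22.7. The fibril-associated Col16a1 was at 0.615, 5.73, 4.54 and 10.6 UPM and Col12a1 at 2.61, 3.09, 0.556 and 9.15, and 13 of the 44 members stayed under 100 UMIs over the 4 libraries.

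Chains of 1 type were compared by their UMIs. The ratio of Col1a1 to Col1a2 UMIs was 0.616 (0.574 to 0.660), 0.553 (0.515 to 0.594), 0.318 (0.299 to 0.337) and 1.46 (1.41 to 1.51). The type I protein usually holds more of the chain from Col1a1 than from Col1a2. Over all cells, the mRNA ratio was below 1 in all gonads and above 1 at D6. The ratio of Col4a1 to Col4a2 stayed between 1.40 and 1.55 over all cells of the 4 libraries. That of Col6a1 to Col6a2 was 0.953, 1.04, 1.20 and 1.00. The ratio of Col9a1 to Col9a3 went from 25.8 (19.3 to 35.1) at E10.5 to 0.142, 0.0897 and 0.0900.

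**Figure D3:**
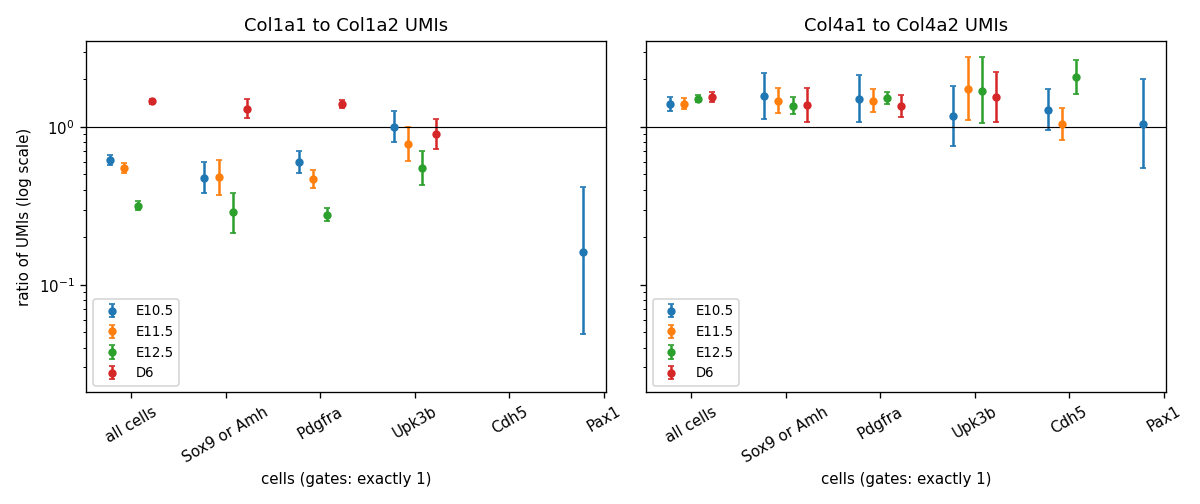
The points give the ratio of UMIs of 2 partner chains (y axis, log scale) in all cells and in cells of 1 marker gate (x axis), 1 color per library, with counting intervals and sums under 5 UMIs of a chain left out. Col1a1 to Col1a2 was 0.318 at E12.5 and 1.46 at D6 in all cells, while Col4a1 to Col4a2 was 1.51 and 1.55.

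To describe these mRNAs by marker, cells were grouped by a marker with at least 1 UMI: Sox9 or Amh, Pdgfra, Upk3b, Cdh5 or Pax1. Gates overlapped: about 28% of the Sox9 or Amh gate also carried Pdgfra in each library (27.7% to 29.1%), and 62.0% of the Pax1 gate at E10.5 carried Sox9 or Amh. Values by gate below are therefore for cells positive for exactly 1 gate. These were 416, 506, 665 and 207 cells for Sox9 or Amh, 628, 343, 716 and 493 for Pdgfra, and 220, 151, 114 and 138 for Upk3b. Cdh5 had 45, 39 and 34 cells in the gonads and 16 at D6, and Pax1 had 84, 0, 0 and 1. Cells with none of these markers numbered 1998, 713, 808 and 1295, which was 52.1%, 33.9%, 29.2% and 56.7% of the cells. At D6 they held 4548 of 8433 Col1a1 UMIs and 843 of 1496 Col6a1 UMIs. Values by gate thus leave out much of the D6 collagen mRNA.

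The gates were checked against marker lists without the gate genes. In the Sox9 or Amh gate, Sertoli markers summed to 22.1, 2776, 6973 and 622 UPM. At E10.5 this was no more than in all cells (29.1 UPM), Dhh and Hsd17b3 were at 0, and sclerotome markers stood at 275 UPM, so the E10.5 gate is not called Sertoli here. At D6 the Sertoli sum was above that of all cells (158 UPM). Interstitial markers in the same D6 gate had 1076 UPM, above its Sertoli sum, against 1601 in all D6 cells. Steroidogenic markers had 249 UPM there, and the part of both lists in the results was not tested. In the Pdgfra gate, interstitial markers summed to 286, 966, 1090 and 2191 UPM, against 250, 526, 564 and 1601 in all cells. At E10.5 the Sox9 or Amh gate had 276 UPM of them, so the Pdgfra gate hardly stood apart there. Coelomic epithelium markers in the Upk3b gate had 779, 551, 599 and 540 UPM, against 256, 147, 117 and 93.9 in all cells. Interstitial markers in the same gate had 311, 748, 721 and 1595 UPM, above the coelomic list in all libraries but E10.5, and their part in the results of that gate was not tested. Endothelial markers in the Cdh5 gate of the gonads had 2980, 2093 and 2136. The Pax1 gate had 639 UPM of sclerotome markers at E10.5, with Nkx3-2 at 0, and 19161 UPM of erythroid markers. Erythroid markers reached 2940 UPM in the Sox9 or Amh gate and 2872 in the Pdgfra gate at E11.5, against 9196 in all E11.5 cells, and their part in the results was not tested.

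**Figure D4:**
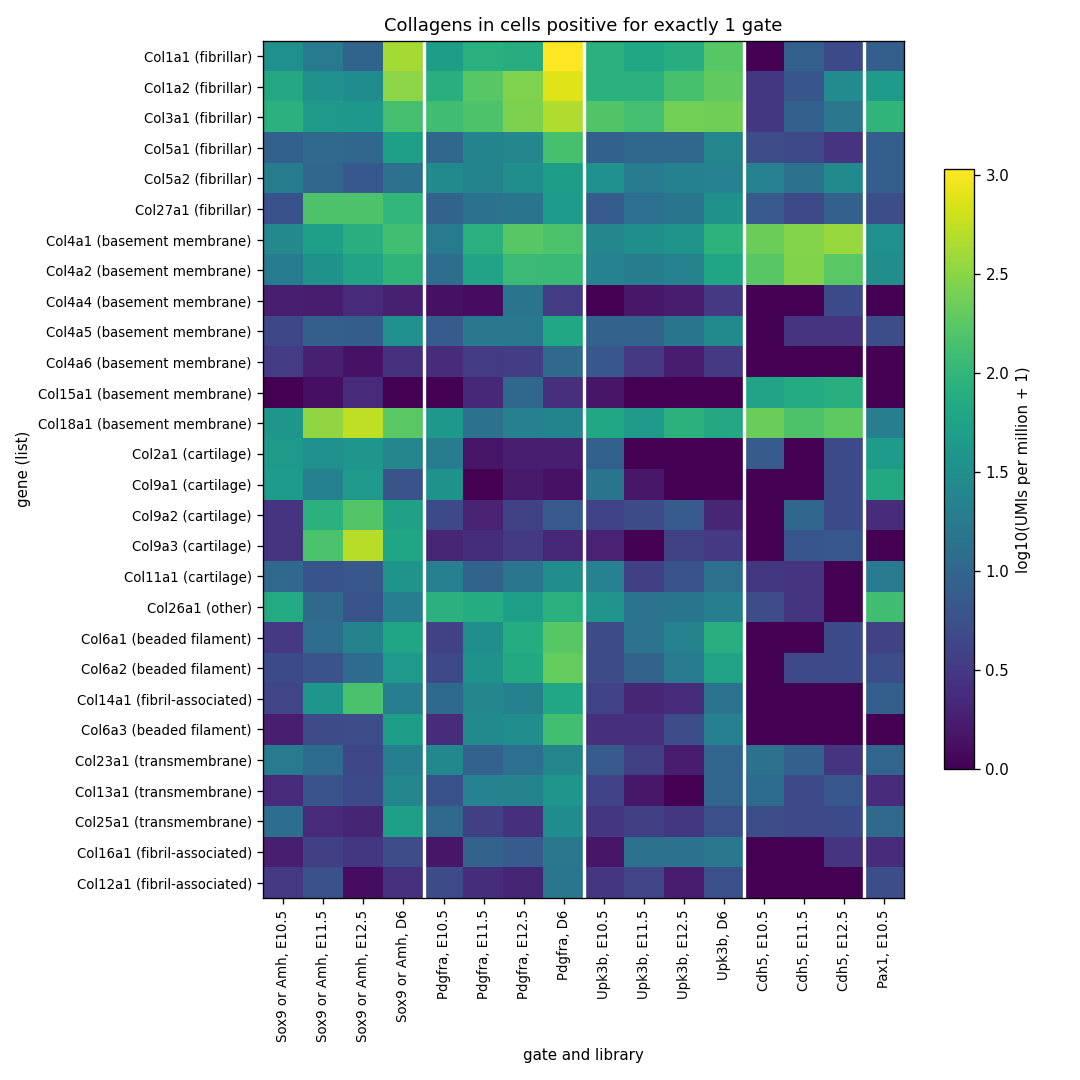
The color gives log10(UPM + 1) of the collagens named in the text (rows, list in brackets) in the 16 sums of cells positive for exactly 1 gate in a library (columns). White lines part the gates. Col15a1 was at 57.5 to 80.2 UPM in the Cdh5 gate of the gonads, and Col9a3 reached 508 UPM in the Sox9 or Amh gate at E12.5.

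Within gates, the 2-fold counts of members at 10 UPM or more were as follows. From E10.5 to E12.5, the Sox9 or Amh gate had 9 of 18 members higher, against 14.1% of genes, and 7 lower, against 13.5%. The Pdgfra gate had 12 of 22 higher, against 9.67%, and 5 lower, against 6.69%. The Upk3b gate had 4 of 15 higher (7.18%) and 3 lower (7.00%), and the Cdh5 gate 2 of 9 higher (10.2%) and 1 lower (9.80%). Higher and lower members were thus of like number in the Sox9 or Amh gate, and higher members were the more in the Pdgfra gate. As the E10.5 gates were not marked like the later ones, these counts cannot be read as change within 1 cell type. From E12.5 to D6, the Sox9 or Amh gate had 14 of 23 higher (30.2%) and 5 lower (8.24%), the Pdgfra gate 15 of 24 higher (29.0%) and 1 lower (6.97%), and the Upk3b gate 10 of 17 higher (27.1%) and 0 lower (6.79%).

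UMIs were summed per library and gate, and gates were compared with edgeR's quasi-likelihood test with library as a block, over 16 sums of at least 20 cells. P-values were adjusted by Benjamini-Hochberg over all 12833 genes tested. Of the 44 members, 30 passed the count filter and 14 did not. The libraries repeat the gate contrast, so the p-values measure how gate differences vary between libraries of different stages and origin. They hold no spread between replicates of a stage. The Pax1 gate gave 1 sum and was not tested. It still counted as 1 of the other gates in each comparison with their mean. That sum held 84 cells of E10.5 with 19161 UPM of erythroid markers.

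Among cells positive for exactly 1 gate, the Pdgfra gate carried more collagen of the fibrillar list and of type VI than the Sox9 or Amh gate. It carried less of types IX and XVIII. Of the 30 members tested, 11 were higher in the Pdgfra gate, against 5.34% of all genes tested, and 4 were lower, against 8.38%. The median member differed by 0.93 on the log2 scale, and the median of all genes by 0.03. The higher members were 4 of 6 tested fibrillar genes, 1 of 7 basement membrane genes, 3 of 4 type VI genes, and Col13a1, Col16a1 and Col26a1. The lower members were 3 of 5 cartilage genes and Col18a1. Without E11.5 the counts were 0 and 0, without E12.5 they were 1 and 0, without D6 they were 6 and 1, and without E10.5 they were 13 and 6. Leaving out cells positive for both markers widened the gap between the gates for Col1a2 at E12.5. The Sox9 or Amh gate there held 219 Col1a2 UMIs in 665 cells of exactly 1 gate, and 978 in all 994 positive cells. The Pdgfra gate held 2045 in 716 cells and 2966 in 1103.

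Col3a1 was at 124, 153, 268 and 461 UPM in the Pdgfra gate, and at 84.0, 40.8, 40.3 and 135 in the Sox9 or Amh gate. The Pdgfra value was the higher in each of the 4 libraries, with a log2 fold change of 1.72 ± 0.31 (SE; adjusted p = 0.00846, edgeR). Col1a2 was at 78.3, 176, 273 and 762 UPM against 66.7, 33.4, 29.1 and 317, with a log2 fold change of 1.71 ± 0.49 (adjusted p = 0.0475, edgeR). Its partner Col1a1 was at 47.0, 82.6, 76.2 and 1069 UPM against 31.9, 16.1, 8.36 and 414, and did not pass (adjusted p = 0.0772, edgeR). The Col1a2 call was lost in 9 of 12 alternatives.

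The type V chains followed the same order. Col5a2 was at 27.2, 22.6, 31.3 and 47.0 UPM in the Pdgfra gate against 17.6, 8.91, 5.84 and 12.7 (adjusted p = 0.00297, edgeR). Col5a1 was at 9.26, 22.3, 24.5 and 140 UPM against 7.83, 9.94, 9.69 and 50.0 (adjusted p = 0.0117, edgeR). For both, the Pdgfra value was the higher in all 4 libraries, and the difference was the smallest at E10.5. The counting intervals of Col5a1 in the 2 gates overlapped there, with 51 UMIs against 29.

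Of 4 type VI genes tested, 3 were higher in the Pdgfra gate. Col6a2 was at 3.63, 35.5, 68.5 and 206 UPM in the Pdgfra gate and at 3.78, 4.97, 10.48 and 41.5 in the Sox9 or Amh gate. The gates overlapped at E10.5, where both were low, and were apart in the other libraries (log2 fold change 2.24 ± 0.31, adjusted p = 0.00123, edgeR). Col6a1 had 2.91, 31.0, 74.5 and 175 UPM against 2.16, 11.1, 21.4 and 59.3 (adjusted p = 0.00181, edgeR), and Col6a3 had 1.45, 26.5, 29.6 and 129 against 0.810, 3.94, 4.25 and 48.3 (adjusted p = 0.00311, edgeR).

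Among the remaining higher members, Col26a1 was at 85.0, 73.1, 49.6 and 83.6 UPM in the Pdgfra gate against 69.1, 10.3, 5.04 and 18.6 (adjusted p = 0.00939, edgeR). Both gates were lower at E12.5 than at E10.5, and the Pdgfra value was the higher in each library. Col4a5 (adjusted p = 0.0159), Col13a1 (0.0360) and Col16a1 (0.0277) passed in the same edgeR fit. Col13a1 was at 4.72, 20.8, 21.5 and 38.2 UPM against 1.35, 5.14, 3.85 and 23.7.

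In the other direction, Col9a3 was at 1.89, 147, 508 and 61.9 UPM in the Sox9 or Amh gate, and at 1.09, 1.49, 2.27 and 1.21 in the Pdgfra gate. The ratio of the Sox9 or Amh to the Pdgfra gate was 1.73 (0.499 to 6.25), 98.9 (45.2 to 270), 224 (139 to 384) and 51.3 (16.9 to 255), so that E10.5 alone had an interval that held 1. The log2 fold change of Pdgfra over Sox9 or Amh was -6.52 ± 0.83 (adjusted p = 0.00210, edgeR). The Pdgfra gate held 6, 6, 17 and 3 UMIs of Col9a3. Its E12.5 level lay below that of the germ cells used as background below, so the E12.5 fold rests on a level near background. Col9a2 was at 1.89, 86.0, 164 and 52.5 UPM against 3.81, 0.992, 2.94 and 6.03 (adjusted p = 0.0267, edgeR). Where cells positive for both genes were kept, Col9a3 in the Pdgfra gate was at 24.9 UPM at E11.5 and at 17.4 UPM one day later.

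Col18a1 was at 38.3, 338, 550 and 177 UPM in the Sox9 or Amh gate and at 40.5, 12.6, 19.7 and 22.1 in the Pdgfra gate. It too was level between the gates at E10.5 and higher in the Sox9 or Amh gate in the other 3 libraries (log2 fold change -3.45 ± 0.75, adjusted p = 0.0194, edgeR). The Pdgfra level of Col18a1 at E12.5 lay below that of the germ cells described below. Col18a1 was found in like shares of germ cells and of all cells, so germ cells are not taken as its background. Over all positive cells, the Sox9 or Amh gate held 17.8%, 84.9%, 84.8% and 42.3% of Col18a1 UMIs. Col2a1 was at 42.9, 31.9, 38.2 and 22.9 UPM against 18.0, 0.496, 0.802 and 0.803 (adjusted p = 0.0113, edgeR) and was higher in the Sox9 or Amh gate at E10.5 as well.

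Col27a1 and Col9a1 did not pass in this contrast. Col27a1 was at 4.86, 153, 151 and 97.5 UPM in the Sox9 or Amh gate against 8.17, 12.4, 13.8 and 45.0 (adjusted p = 0.0501, edgeR), so the Pdgfra gate had the higher value at E10.5 and the lower one in the other libraries. Col9a1 was at 44.8, 20.6, 42.5 and 5.09 UPM against 35.4, 0, 0.669 and 0.402 (adjusted p = 0.0603, edgeR). With 3 UMIs put in place of the count of 0 in the Pdgfra gate at E11.5, the Col9a1 fold of the Sox9 or Amh gate was 27.7. This fold leaves out the counting error of the Sox9 or Amh value and is not a lower limit.

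**Figure D5:**
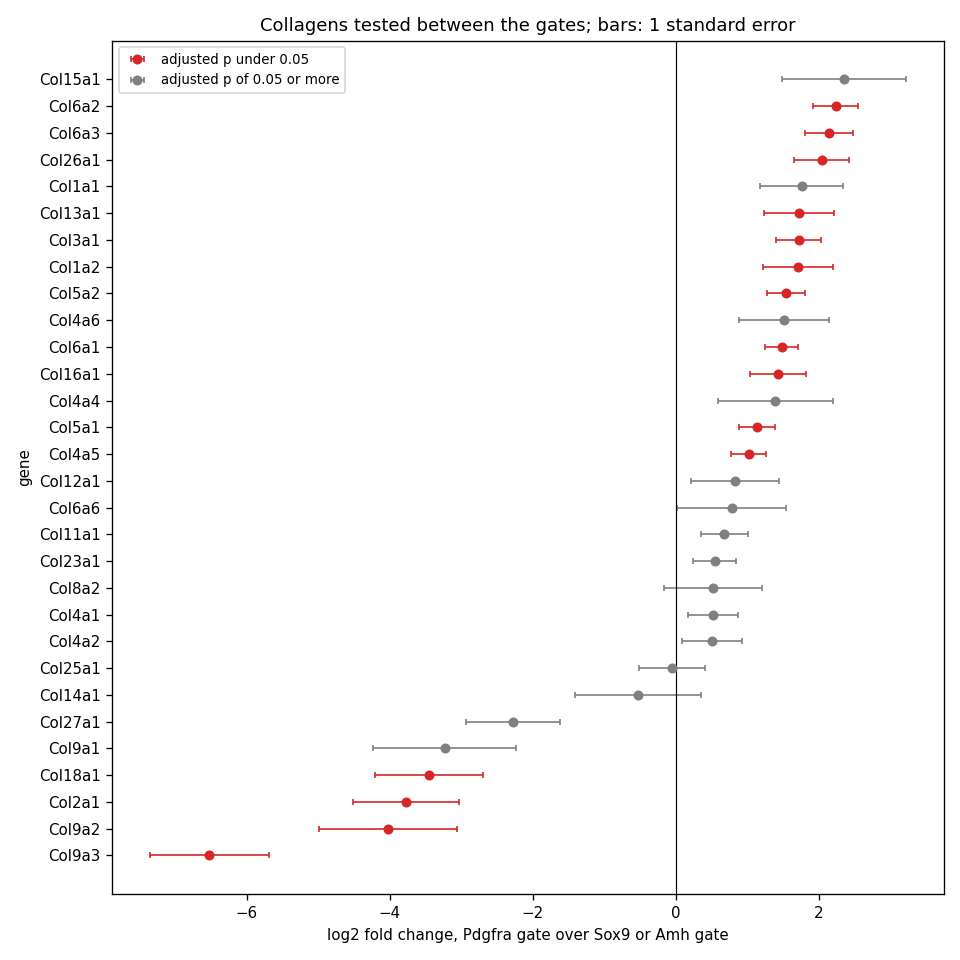
Points show the log2 fold change of the 30 tested collagens (y axis) in the Pdgfra gate over the Sox9 or Amh gate (x axis), with bars of 1 standard error and red for an adjusted p under 0.05 (edgeR). Col6a2 lay at 2.24 and Col9a3 at -6.52.

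Against the mean of the other gates, 4 members were higher in the Sox9 or Amh gate (6.97% of all genes) and 0 lower (2.71%) by edgeR, with 1 lower at an unadjusted p under 0.05 and 0 by DESeq2. They were Col9a3 (adjusted p = 0.00785), Col2a1 (0.0158), Col9a2 (0.0421) and Col27a1 (0.0458). Over all genes, 72.0% of calls were higher with TMM scaling and 83.2% with scaling by total UMIs. In the Pdgfra gate, 9 members were higher (2.17%) and 0 lower (0.600%), with 1 lower at an unadjusted p under 0.05 and 1 by DESeq2. Those higher were Col3a1, Col5a1, Col5a2, Col6a1, Col6a2, Col6a3, Col4a5, Col23a1 and Col26a1. The Col23a1 call was lost in 8 of 12 alternatives, with an adjusted p of up to 0.165. The Sox9 or Amh calls fell to 0 without E11.5 or without E12.5 and to 2 without D6. The Pdgfra calls fell to 0, 1 and 3 without E11.5, E12.5 and D6.

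In the Upk3b gate, which also carried interstitial markers, 1 member was higher (3.88%) and 0 lower (1.34%) by edgeR, with 5 lower at an unadjusted p under 0.05 and 3 by DESeq2. The count of higher members by edgeR was near the share over all genes. Col3a1 was at 161, 131, 243 and 235 UPM there (log2 fold change 1.53 ± 0.30, adjusted p = 0.0176). Without E11.5 it did not pass. It lay near the Pdgfra gate in the gonads and below it at D6. Fibrillar members gave 61.1%, 65.1%, 66.4% and 57.0% of collagen UMIs in this gate. Col1a1 was at 84.6, 64.3, 76.4 and 174 UPM, and the ratio of D6 to E12.5 was 2.28 (1.77 to 2.94), against 14.0 (12.8 to 15.4) in the Pdgfra gate and 49.6 (38.1 to 65.5) in the Sox9 or Amh gate. The difference between these ratios was not tested, as each rests on 1 library a side.

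In the gonads, cells of the Cdh5 gate, with endothelial markers, carried mainly basement membrane collagen. The basement membrane list gave 89.9%, 90.6% and 87.1% of their collagen UMIs in the gonads, whereas the fibrillar list gave 4.79%, 4.80% and 8.75%. Of the 30 members, 3 were higher than the mean of the other gates (9.37% of all genes) and 5 lower (7.08%). The count of higher members was thus near the share over all genes. Col4a1, Col4a2 and Col15a1 were the higher members, and they passed in all 11 alternatives that gave a value. Col3a1, Col4a5, Col6a1, Col11a1 and Col26a1 were the lower members. Without E11.5 the lower members fell to 2. The gate rested on 34 to 45 cells a library. Germ cell markers stood in it at 0, 825 and 1044 UPM, and erythroid markers at 70.3, 74.0 and 959, and their part in the results was not tested.

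Col4a1 was at 224 UPM (183 to 271), 294 (250 to 344) and 366 (316 to 420) in the Cdh5 gate of the gonads, and at 16.7, 83.8 and 176 in the Pdgfra gate of the same libraries. The Cdh5 gate was the higher at each stage, and its ratio to the Pdgfra gate was 13.4, 3.51 and 2.08. The log2 fold change over the mean of the other gates was 2.58 ± 0.35 (adjusted p = 0.000715, edgeR). Col4a2 was at 175, 281 and 177 UPM, with a log2 fold change of 2.59 ± 0.45 (adjusted p = 0.00312, edgeR). In the 16 D6 cells with Cdh5 only, which were too few for the fit, Col4a1 was at 789 UPM and Col4a2 at 429. These cells held 103 Col4a1 and 56 Col4a2 UMIs, and also 32 Col1a1 and 15 Col1a2 UMIs. The Cdh5 gate of the gonads held 0, 4 and 2 Col1a1 UMIs, so its low fibrillar level was not seen at D6.

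Col15a1 was at 57.5 UPM (37.9 to 83.7), 72.2 (51.3 to 98.7) and 80.2 (58.0 to 108) in the Cdh5 gate of the gonads. It was at or below 1.33 UPM in the Sox9 or Amh and Upk3b gates of the gonads and at 0, 1.24 and 9.63 UPM in the Pdgfra gate. With 3 UMIs put in place of the count of 0 in the Pdgfra gate at E10.5, the fold of the Cdh5 gate was 106. This fold leaves out the counting error of the Cdh5 value and is not a lower limit. At E12.5 the ratio of the Cdh5 to the Pdgfra gate was 8.33 (5.57 to 12.3). The test over the mean of the other gates gave an adjusted p of 4.20e-05 (edgeR), and no fold is given because the Pax1 sum was at 0. Col18a1 was at 224, 152 and 187 UPM in the Cdh5 gate and did not pass (adjusted p = 0.132, edgeR), and the Sox9 or Amh gate stood above it at the later stages.

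Cells with Pax1, a gene of the sclerotome that forms the vertebrae, were found at E10.5, where 276 cells were positive, and 2 cells were positive at D6. Over all 276 cells, Col9a1 was at 132 UPM (118 to 146), Col3a1 at 123, Col26a1 at 112 and Col2a1 at 91.3. The gate held 7.19% of the E10.5 cells, 27.7% of Col9a1 UMIs and 27.3% of Col2a1 UMIs. Col1a1 was at 11.6 UPM, below the other gates except Cdh5. Of the 84 cells with Pax1 alone, Col9a1 was at 68.3 UPM, Col2a1 at 45.0 and Col9a3 at 0, with an exact upper limit of 5.36 UPM. In the later gonads 0 of 2101 and 0 of 2764 cells carried Pax1.

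Shares of cells with a UMI were set against germ cells, taken as cells with at least 2 UMIs of Dazl and Ddx4 together, as a background of free RNA. At E12.5 Col3a1 was found in 53.4% of all cells (median 10946 UMIs) and in 4.93% of 446 germ cells (median 18637 UMIs), and Col4a1 in 51.1% and 5.38%. For Col9a3 the values were 21.7% and 5.61%. Thinned to 2000 UMIs a cell, Col3a1 was in 25.3% and 0.448%. Col18a1 did not follow this, with 43.1% of all cells and 40.6% of germ cells at E12.5, and 37.3% and 41.9% at E11.5. Germ cells therefore do not serve as a background of free RNA for Col18a1. In level, germ cells had 28.2 UPM of Col18a1 at E12.5 and 2.93 of Col9a3, against 160 and 122 in all cells.

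The genes that process or bind collagen were described from lists of their own. Of 26 tested processing enzymes and chaperones, 6 were higher in the Pdgfra than in the Sox9 or Amh gate by edgeR (Adamts2, Bmp1, Loxl1, Loxl2, P3h3 and Serpinh1), against 5.34% of all genes, and 20 did not pass. Serpinh1, the collagen chaperone HSP47, was at 855, 972, 962 and 537 UPM in the Pdgfra gate against 774, 577, 681 and 385 (log2 fold change 0.48 ± 0.11, adjusted p = 0.0118). Against the mean of the other gates, Serpinh1 was lower in the Sox9 or Amh gate and higher in the Cdh5 gate by edgeR. It did not pass in the Pdgfra gate. It was the most abundant gene of the list, at 795, 693, 654 and 443 UPM over all cells. Ppib, P4hb, Pcolce and P3h4 followed in abundance, and Ppib was at 418, 408, 513 and 440 UPM over all cells.

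Of 16 tested partners of the basement membrane, 5 were higher in the Cdh5 gate than in the mean of the other gates (Hspg2, Lama4, Lamc1, Nid1 and Nid2) by edgeR, against 9.37% of all genes, and 11 did not pass. Hspg2, which encodes perlecan, was at 115, 109 and 129 UPM in the Cdh5 gate of the gonads and at 11.6, 29.3 and 37.6 in the Pdgfra gate (log2 fold change over the mean of the other gates 3.25 ± 0.30, adjusted p = 5.46e-06). The most abundant partner was Sparc, a collagen-binding glycoprotein, at 382, 1471, 1635 and 806 UPM over all cells. Fbln1, Lamb1, Pxdn and Smoc2 came next, and Lamb1 was at 23.5, 45.2, 53.0 and 104 UPM. Both type IV chains and Lamb1 thus had their lowest level at E10.5 and their highest at D6.

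Of 6 tested cartilage partners, Sox5, a known partner of SOX9, was higher in the Sox9 or Amh gate than in the mean of the other gates (adjusted p = 0.0196, edgeR), against 6.97% of all genes, and 5 did not pass. Sox5 was at 14.9, 43.2, 28.4 and 72.9 UPM there. Hapln1, Sox6, Fgfr3 and Cnmd were the other most abundant of the list. Cnmd, the cartilage gene for chondromodulin, was at 0, 1.20, 13.1 and 0 UPM in the Sox9 or Amh gate. Of 7 collagen receptors tested, Ddr1 was higher in the Sox9 or Amh gate (adjusted p = 0.00204) and in the Upk3b gate (adjusted p = 0.00263) in the same edgeR fit, against 6.97% and 3.88% of all genes. In the Cdh5 gate, Itga1, Itga2 and Itgb1 were higher, against 9.37% of all genes, and Ddr1 and Mrc2 were lower, against 7.08%.

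Across the 16 sums, log2(UPM + 1) of Col4a1 and Col4a2 had a Pearson r of 0.98, Col1a1 and Col1a2 of 0.93, Col6a1 and Col6a2 of 0.94, and Col9a2 and Col9a3 of 0.94. Col9a1 and Col9a3 had an r of 0.33, Col5a1 and Col5a2 of 0.31, and Col1a1 and Col4a1 of -0.21. These values are descriptions, since the sums share libraries and depth. The neighbors Col4a1 and Col4a2 thus had closely correlated levels, but their UMI ratio was not constant. In the Cdh5 gate the ratio of Col4a1 to Col4a2 was 1.05 (0.832 to 1.32) at E11.5 and 2.06 (1.61 to 2.66) at E12.5. Col3a1 and Col5a2, which stand tail to tail on chromosome 1 with 24614 bases between them, had an r of 0.34. Col1a1 and Col1a2, with their r of 0.93, lie on chromosomes 11 and 6. A part of gene position in these values was not tested.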

How the data were processed

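The 4 XY libraries were analysed from UMI count matrices as deposited. Per the labels, the authors used Cell Ranger 3.0.2 with mm10, and the matrix headers name Cell Ranger 6.0.0. Cells were kept by the study's limits per library on detected genes (over 1000 and under 4000 for E10.5 and D6, 500 and 5000 for E11.5, 2000 and 5000 for E12.5) and on mitochondrial UMIs (under 10%, 20%, 8% and 12%, in the order of age with D6 last). Doublets were left in, and Scrublet removal was an alternative. Exact Poisson and binomial intervals of 95% cover counting error only. With 1 library per condition, no test was made between libraries. Gates (at least 1 UMI) were summed over cells positive for exactly 1 gate, and sums of at least 20 cells entered edgeR 4.0.16 (R 4.3.3; TMM, filterByExpr, glmQLFit robust, library as a block; 8 residual degrees of freedom; Benjamini-Hochberg, 0.05). DESeq2 1.42.0 was an alternative. The fit was tested on simulated counts. A fold was counted from 2, among genes with at least 10 UPM in either library.

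The text names fibrillar, basement membrane and cartilage members with 10 UPM in a library or in a gate sum of 20 cells, the 10 other members with the most UMIs, and the 5 most abundant genes of each pathway list. Members, lists, gates and tests were chosen with earlier results of these data known. Hemoglobin, mitochondrial and unlisted genes stayed in the totals. Positions are from the GENCODE annotation of GRCm38 and promoters from RefSeq (GRCm38.p6).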

Additional observations from a re-analysis of the deposited data

Results flagged for a closer look

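For 4 members the ratio of the Pdgfra gate to the Sox9 or Amh gate lay above 1 in one library and below 1 in another, with counting intervals on opposite sides. In each case the difference between the libraries was not tested, since each is 1 library. For Col14a1 the ratio was 3.03 (1.60 to 6.22) at E10.5 and 3.36 (2.14 to 5.52) at D6, against 0.633 (0.494 to 0.806) at E11.5 and 0.141 (0.118 to 0.167) at E12.5. Its level in the Sox9 or Amh gate went from 3.24 UPM at E10.5 to 144 at E12.5, while in the Pdgfra gate it was 9.81 and 20.2 UPM. For Col12a1 the ratio was 8.53 (2.20 to 73.1) at D6 and 0.321 (0.109 to 0.795) at E11.5. It was below 15 UPM in every gate sum of the fit.

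Both main type IV chains turned in the same way. Col4a1 had a ratio of 0.645 (0.479 to 0.867), 1.66 (1.41 to 1.94), 2.24 (2.03 to 2.47) and 1.16 (0.959 to 1.42) in E10.5, E11.5, E12.5 and D6. Col4a2 had 0.673 (0.464 to 0.975), 1.66 (1.36 to 2.01), 2.00 (1.78 to 2.25) and 1.18 (0.940 to 1.49).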

How the results depend on the processing

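No paired analysis was possible because the labels give no replicate numbers that the libraries share; library was already the block of the fit. With the same cell limits in every library, the ratio of E12.5 to E10.5 was 1.70 for the fibrillar and 3.53 for the basement membrane list, and that of D6 to E12.5 was 3.96 for the fibrillar list. With all deposited cells, the basement membrane ratio of E12.5 to E10.5 was 3.57, the cartilage ratio 2.04, and the fibrillar and cartilage ratios of D6 to E12.5 were 3.97 and 0.357.

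Members called higher in the Sox9 or Amh gate numbered 7 by DESeq2, 2 without the filter and 0 with sums of at least 50 cells, and 1 was lower with gates of 2 UMIs and without the Pax1 sum, an alternative chosen after seeing the data. Sums of at least 50 cells also gave 0 higher in the Pdgfra and Upk3b gates and left no Cdh5 sum. In the Pdgfra gate, 1 was lower by DESeq2 and without the Pax1 sum. Without that sum 12 of 25 tested members were higher in the Pdgfra gate, against 638 of all 11277 genes tested. In the Upk3b gate, 2 were higher and 3 lower with gates of 2 UMIs, by DESeq2 and without the Pax1 sum, and 2 were lower with common cell limits. In the Cdh5 gate, 8 were lower without the Pax1 sum.

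Leaving out 1 library at a time gave 0 to 6 higher and 0 to 2 lower for Sox9 or Amh, 0 to 12 and 0 to 2 for Pdgfra, 0 to 2 and 0 to 6 for Upk3b, 3 to 3 and 2 to 7 for Cdh5, and 0 to 13 and 0 to 6 for Pdgfra against Sox9 or Amh. The fits without a library had 5 or 6 residual degrees of freedom instead of 8. The 37 calls of a member in a contrast kept their sign in each alternative that gave a value. Many were lost all the same: in 112 pairs of a call and an alternative, the adjusted p was no longer under 0.05. The only calls that passed in each alternative with a value were those of Col3a1, Col4a1, Col4a2, Col6a1 and Col15a1 in the Cdh5 gate. Levels by gate also depended on the choice of cells positive for exactly 1 gate. Among levels of at least 10 UPM over all positive cells, 111 stayed within their counting interval under that choice and 130 did not. Depth limits members near 1 UPM, and the Cdh5 gate rests on few cells.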
